A study of Homo sapiens with 11 samples.

Results

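A set of 8 genes of androgen signalling and of the secretory prostate epithelium was followed through PC-3 tumour xenografts: *KLK2*, *KLK3*, *TMPRSS2*, *FOLH1*, *FOXA1*, *STEAP1*, *STEAP2* and *SLC45A3*. They were taken by name, without a threshold on their values, and make up 8 of the 25590 genes listed in the expression tables. In the human reads of 11 tumours, 5 of these 8 genes had a median of at least 1 RPKM (reads corrected for exon length and for the library total), *FOLH1* was near the limit of detection, and *KLK2* and *KLK3* were not detected apart from a single read. No difference between A2M and PBS tumours was found after correction for all genes in the 6 of them that had enough reads to be tested. PC-3 is an established human prostate carcinoma line that is used as a model of androgen-independent disease. The tumours were therefore all descended from 1 cell line and are not separate patient tumours.

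The cells were placed under the skin of male athymic nude mice (Crl:NU-Foxn1nu), 8 weeks old, together with matrigel, and these hosts lack T cells. From day 7 the mice received intraperitoneal injections. The A2M group (6 tumours) was given the transformed, receptor-binding form of human alpha2-macroglobulin, a proteinase inhibitor of plasma, and the PBS group (5 tumours) served as control. The comparison asked whether this treatment changed gene expression of the tumour cells. Tumours are named as in their labels. Whether each tumour came from a mouse of its own is not given in the labels, so that the p-values cover the spread between these tumours.

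In the luminal cells of the prostate, androgens bind the androgen receptor, which then occupies response elements in promoters and enhancers, often where the pioneer factor FOXA1 has opened the chromatin. Its best known targets are kallikreins that are secreted into the seminal fluid, together with several membrane proteins that serve as tissue markers or as targets of imaging and therapy. Prostate tumours that no longer depend on the receptor often lose the secreted products while they keep other epithelial genes.

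The libraries held 16958533 to 35874381 counts each. A signal of 3 counts, used as the limit of detection, then stood for 0.0836 to 0.177 RPM (counts scaled to the library total). This limit covers counting error only. The epithelial markers of luminal type were abundant in the 11 tumours. As medians, keratin 19 (*KRT19*) had 409 RPKM, *KRT18* 322 RPKM, *KRT8* 246 RPKM, *EPCAM* 172 RPKM, *CDH1* 80.7 RPKM and the prostate homeobox factor *HOXB13* 27.1 RPKM. Markers of basal epithelium were lower, with *KRT15* at 22.7 RPKM, *TP63* at 3.92 RPKM, *KRT5* at 2.38 RPKM and *KRT14* at 1.05 RPKM. All 10 of these epithelial markers were thus detected in PC-3 tumours.

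*KLK3* encodes prostate-specific antigen and *KLK2* the related kallikrein that can activate it. Both lie on chromosome 19 of GRCh37 on the plus strand, *KLK3* from 51358171 to 51364020 and *KLK2* from 51364824 to 51383823, with 803 bases between the annotated genes. Their promoters are printed because the receptor is known to act on a response element in this stretch, and because both genes had almost no reads. Each line gives the 250 bases before the RefSeq start on the plus strand, with the stretch that resembles an androgen response element in capitals.
KLK3, chr19:51357921-51358170: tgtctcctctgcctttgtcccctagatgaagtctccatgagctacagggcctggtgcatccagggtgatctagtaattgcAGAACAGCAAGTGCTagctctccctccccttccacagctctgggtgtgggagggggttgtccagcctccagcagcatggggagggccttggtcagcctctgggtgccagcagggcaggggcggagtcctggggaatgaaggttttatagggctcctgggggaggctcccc
KLK2, chr19:51376445-51376694: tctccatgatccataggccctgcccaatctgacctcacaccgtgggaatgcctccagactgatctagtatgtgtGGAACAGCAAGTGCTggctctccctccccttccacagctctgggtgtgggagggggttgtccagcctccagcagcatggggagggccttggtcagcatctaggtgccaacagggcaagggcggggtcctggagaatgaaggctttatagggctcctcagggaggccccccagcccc
The start of this *KLK2* promoter lies inside the longer gene span of the annotation. Both promoters were identical in 79.2% of 259 aligned columns, and each had 1 exact match on chromosome 19 of GRCh37.

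The searched element consisted of the arms AGAACA and TGTTCT with 3 free letters between them, on both strands, with at most 2 mismatches over its 12 fixed letters. In *KLK3* the stretch from position -170 to -156 of the start differed from the element by T10A and T13G, counted from 1 at its 5′ end. The aligned stretch of *KLK2*, from -176 to -162, had in addition A1G and thus 3 mismatches, and A1G was also the single substitution between *KLK3* and *KLK2*. The element is its own reverse complement, so that each match was found on both strands and is counted once. At most 2 mismatches were found in 1.18% of 35116 RefSeq promoters (GRCh38.p14) and at most 3 in 9.17%. The first arm AGAACA alone was present in 12.4% of them. Among the 6 of 8 genes with a promoter entry (7 starts), *KLK3* alone held the element at up to 2 mismatches and alone held the first arm. With 3 mismatches *KLK2* and the second start of *STEAP2* were added. *FOXA1*, *STEAP1* and *SLC45A3* had no match in this window, and *TMPRSS2* and *FOLH1* were not searched.

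In these tumours *KLK3* had 0 reads in each of the 11 libraries. *KLK2* had 1 read in PC3_tumor_128 and 0 in the other 10 tumours. Over all 315828824 counts, 3 counts correspond to 0.00950 RPM, and this was taken as the limit of detection for *KLK3*, for counting error only. A single read allows no comparison of the treatments. The read length is not given in the sources used here, and windows of 50 bases were chosen to compare transcripts. Such windows could rarely fit both kallikreins exactly. Of the 50-base windows of *KLK3*, 0.777% were shared with *KLK2*, and 0.396% of those of *KLK2* with *KLK3*.

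Other kallikreins were expressed. Of 13 further genes of the family, 6 passed the filter on low counts, with *KLK6* at a median of 16.6 RPKM, *KLK5* at 12.5 RPKM and *KLK14* at 1.65 RPKM. *KLK4*, another kallikrein known as androgen-regulated in prostate, had 3 to 11 counts and a median of 0.174 RPKM. *KLK12* had no read, and *KLK1*, *KLK11*, *KLK13* and *KLK15* reached 3 counts at most.

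**Figure D1:**
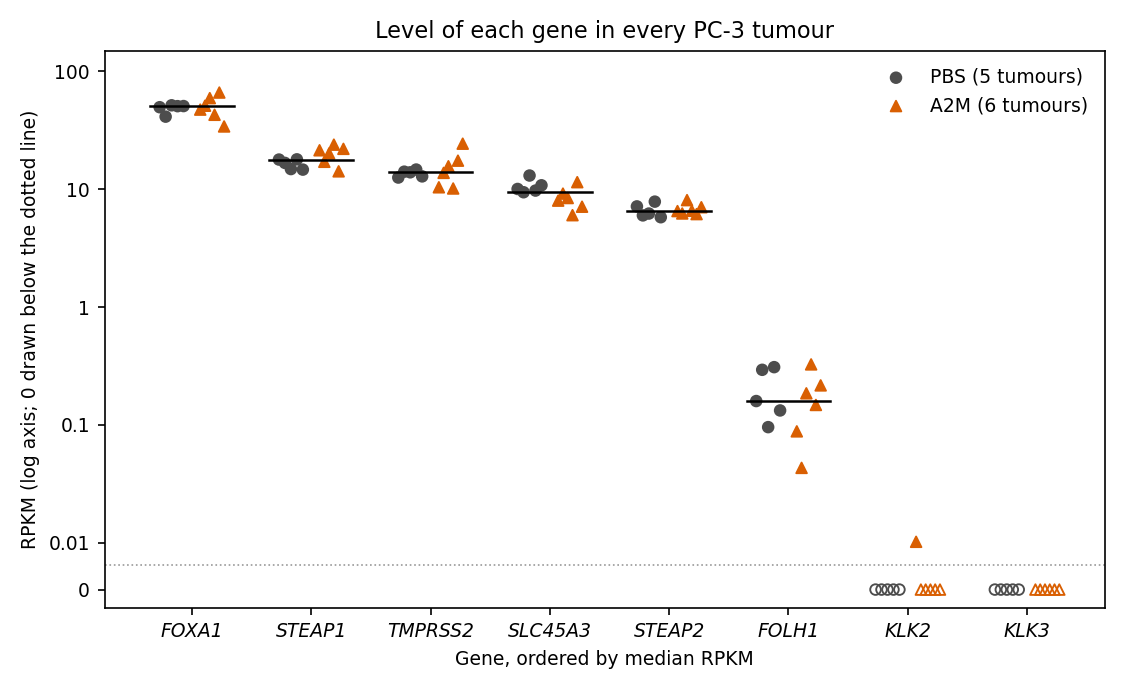
Level of the 8 genes in every tumour, in RPKM on a log axis, with values of 0 as open symbols below the dotted line; circles are the 5 PBS tumours, triangles the 6 A2M tumours and the line is the median of all 11. FOXA1 stands highest at a median of 50.8 RPKM, 4 genes lie between 6.53 and 17.9 RPKM, FOLH1 lies at 0.159 RPKM, and KLK2 and KLK3 are at 0 except for 1 tumour.

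Ordered by median RPKM, which corrects for gene length, the genes stood as *FOXA1*, *STEAP1*, *TMPRSS2*, *SLC45A3*, *STEAP2*, *FOLH1*, and at 0 *KLK2* and *KLK3*. *FOXA1* exceeded *STEAP1* in 11 of 11 tumours without overlap of the ranges, with a ratio of medians of 2.84. The next 4 genes were close to each other, and the ranges of all neighbours overlapped. *STEAP1* was above *TMPRSS2* in 9 of 11 tumours, *TMPRSS2* above *SLC45A3* in 11 of 11 and *SLC45A3* above *STEAP2* in 10 of 11. Between *STEAP2* and *FOLH1* the medians differed 41.0-fold, again without overlap.

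*FOXA1* (chromosome 14, 38058757 to 38065264, minus strand), the pioneer factor, had a median of 50.8 RPKM, above 94.6% of all listed genes. The PBS tumours, from PC3_tumor_123 to PC3_tumor_127, had 49.8, 41.4, 51.6, 50.8 and 50.9 RPKM. In the A2M tumours, from PC3_tumor_128 to PC3_tumor_132 and then PC3_tumor_112, it had 47.5, 51.2, 59.4, 42.9, 66.2 and 34.1 RPKM. Thus the lowest and the highest tumour were both in the A2M group, and the groups overlapped. Values of the other genes are given in the same order of tumours. Its exons overlap those of *TTC6* on the other strand, and the library kit does not mark strand. Of its relatives, *FOXA2* was low at 1.30 RPKM and *FOXA3* had a median of 0.

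*STEAP1* and *STEAP2*, both membrane proteins of a family of metalloreductases, are neighbours on chromosome 7 on the plus strand. *STEAP1* lies from 89783770 to 89794143 and *STEAP2* from 89796904 to 89867451, 2760 bases further on. For *STEAP1* the 5 PBS tumours had 17.9, 16.7, 14.9, 18.0 and 14.7 RPKM, and the 6 A2M tumours 21.4, 17.1, 20.1, 23.9, 14.2 and 22.0 RPKM. Here 4 A2M tumours lay above all PBS tumours in CPM and PC3_tumor_132 lay below them. In *STEAP1*, 23.8% of the 50-base windows are shared with *STEAP1B*, which had 2.58 RPKM, so that part of its reads cannot be placed with certainty.

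*STEAP2* was the least variable of the expressed genes. It had 7.16, 6.00, 6.22, 7.86 and 5.79 RPKM in the PBS tumours and 6.53, 6.23, 8.09, 6.57, 6.16 and 7.04 RPKM in the A2M tumours. The 2 groups covered nearly the same range, and the coefficient of variation over the 11 tumours was 11.3%, against 17.3% for *FOXA1* and 26.7% for *TMPRSS2*. *STEAP3*, known as a reductase of iron uptake, was as high as *STEAP1* with 19.1 RPKM, while *STEAP4* had 0.533 RPKM.

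*TMPRSS2* (chromosome 21, 42836227 to 42903043, minus strand) encodes a serine protease of the cell surface and is the androgen-regulated partner in many prostate cancer gene fusions. The PBS tumours had 12.6, 14.1, 13.9, 14.7 and 12.9 RPKM. Values of the A2M tumours were 10.4, 13.8, 15.7, 10.2, 17.5 and 24.4 RPKM, the last in PC3_tumor_112. The A2M tumours lay on both sides of the narrow PBS range. Exons of *TMPRSS2* overlap those of *MX1* on the other strand. *MX1* had 159.4 RPM in PC3_tumor_112, within its range of 104.1 to 223.3 over the 11 tumours. These values cover the whole gene, and the part of *MX1* reads in the *TMPRSS2* counts was not tested. In the same family of membrane proteases (14 genes), *ST14* was far more abundant at 127.2 RPKM and *TMPRSS13* had 4.12 RPKM.

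*SLC45A3* (chromosome 1, 205626979 to 205649637, minus strand), the transporter also known as prostein, had 10.1, 9.44, 13.1, 9.75 and 10.8 RPKM in the PBS tumours. In the A2M tumours it had 8.01, 9.19, 8.43, 6.03, 11.5 and 7.11 RPKM. All A2M tumours except PC3_tumor_132 were below the lowest PBS tumour. The other members of this transporter family were lower, with 3.99 RPKM for *SLC45A4* and 1.32 RPKM for *SLC45A1*.

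*FOLH1* (chromosome 11, 49166644 to 49230190, minus strand) encodes prostate-specific membrane antigen, a peptidase of the cell surface and a target of prostate imaging. Only 2 to 26 reads per tumour were counted. The PBS tumours had 0.159, 0.294, 0.0957, 0.309 and 0.133 RPKM, and the A2M tumours 0.0881, 0.0432, 0.185, 0.326, 0.148 and 0.216 RPKM. The A2M tumours spanned a range that enclosed the PBS tumours, and 10 of 11 tumours were above 3 counts. Since 26.9% of its 50-base windows are shared with *FOLH1B*, which itself had 0 to 5 counts, the low level is uncertain in addition. The related peptidase gene *NAALADL2* had 4.11 RPKM and *NAALAD2* 0.550 RPKM.

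To compare the treatments, CPM (counts scaled to the TMM-normalized library total) were used within each gene. Of the 8 genes, 6 passed the filter and 0 of them differed at an adjusted p under 0.01 (edgeR quasi-likelihood test, Benjamini-Hochberg over 16630 genes), beside 0% of all genes tested. At an unadjusted p under 0.05 there was 1 of 6, *SLC45A3*, beside 7.08% of all genes in either direction and 3.53% in the lower direction. With 6 genes this count is no result about the group. The treatments were free of overlap in CPM for 0 of the 6 genes, beside 0.71% of all genes. The median log2 fold change of the 6 genes was -0.0061, that of all genes tested -0.0021. As tumours were measured in bulk, fewer cells of a kind and less RNA per cell cannot be told apart.

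**Figure D2:**
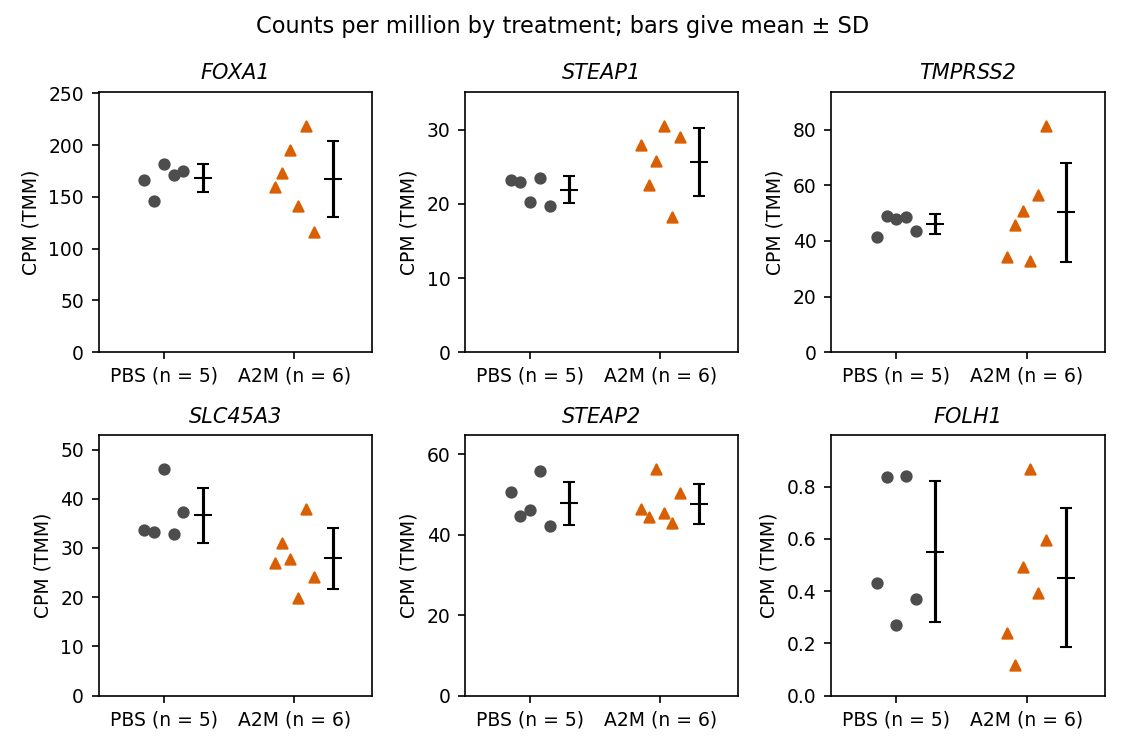
CPM (TMM) of the 6 genes that passed the filter, by treatment, one panel per gene with an axis from 0; circles are PBS tumours (n = 5), triangles A2M tumours (n = 6), and bars give mean ± SD. The groups overlap in each panel, and the spread of FOXA1 and TMPRSS2 is wider in the A2M tumours (SD 37 and 17.8 CPM) than in the PBS tumours (SD 13.4 and 3.43 CPM).

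*SLC45A3* had 33.7, 33.4, 46.0, 32.8 and 37.3 CPM in the PBS tumours and 26.9, 31.1, 27.8, 19.8, 37.9 and 24.2 CPM in the A2M tumours. Here 5 of 6 A2M tumours lay below every PBS tumour, but PC3_tumor_132 lay above 4 of them. The mean was 36.6 ± 5.51 CPM (SD, n = 5) with PBS and 27.9 ± 6.18 CPM (SD, n = 6) with A2M. The log2 fold change was -0.39 (standard error 0.143, 95% interval -0.70 to -0.08). The unadjusted p was 0.0162 and the adjusted p 0.642 (edgeR), so the difference did not pass. Over all alternatives the adjusted p of *SLC45A3* was between 0.401 and 1.

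*STEAP1* differed in the other direction, with means of 21.9 ± 1.8 CPM for PBS (SD, n = 5) and 25.7 ± 4.61 CPM for A2M (SD, n = 6). Its log2 fold change was 0.23 (standard error 0.120, 95% interval -0.03 to 0.49; edgeR adjusted p = 0.743). *TMPRSS2* had 46.1 ± 3.43 CPM (SD, n = 5) and 50.3 ± 17.8 CPM (SD, n = 6), or 0.13 on the log2 scale (95% interval -0.28 to 0.54; edgeR adjusted p = 0.928). Its higher mean rested on PC3_tumor_112 with 81.3 CPM, and without this tumour the log2 fold change was -0.065.

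*FOXA1* was level between the groups at 168.0 ± 13.4 CPM (SD, n = 5) and 167.2 ± 37 CPM (SD, n = 6), or -0.01 on the log2 scale (95% interval -0.29 to 0.28; edgeR adjusted p = 0.995). *STEAP2* had 47.9 ± 5.35 CPM (SD, n = 5) and 47.6 ± 4.91 CPM (SD, n = 6), with the narrowest interval of -0.20 to 0.18 (edgeR adjusted p = 0.994). With library size only, the log2 fold changes of both genes were positive, and the median of all genes moved to 0.04. Positive values were also found where this median moved little. *FOXA1* had 0.081 without PC3_tumor_112, beside a median of all genes of -0.0022. *STEAP2* had 0.0013 with limma-voom, beside a median of -0.0037, and 0.055 without PC3_tumor_126, beside 0.0025. *FOLH1* had 0.550 ± 0.270 CPM (SD, n = 5) and 0.451 ± 0.266 CPM (SD, n = 6). At this depth its interval was wide, from -1.08 to 0.66 around a log2 fold change of -0.21 (edgeR adjusted p = 0.947).

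**Figure D3:**
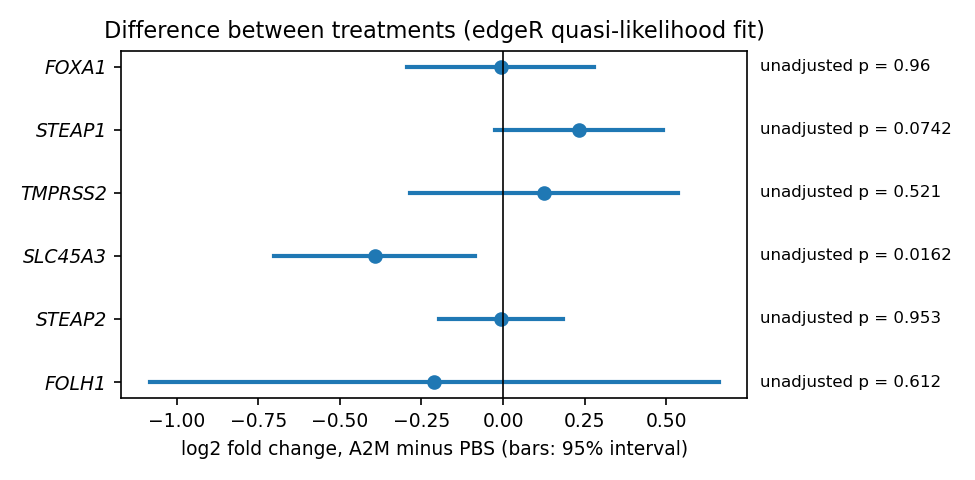
Difference between A2M and PBS tumours for the 6 genes, as log2 fold change of the edgeR quasi-likelihood fit (points) with its 95% interval (bars); the unadjusted p stands beside each gene. The interval of SLC45A3 (-0.70 to -0.08) does not include 0, that of FOLH1 is the widest (-1.08 to 0.66), and no gene passed after adjustment over all genes.

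How the 6 genes varied together was computed from log2 CPM after the group means were removed, which takes out a mean shift between the treatments but no difference among tumours of a group. For all 15 pairs, p came from exact permutation within each treatment group (86400 arrangements, two-sided) with Benjamini-Hochberg adjustment over the 15 pairs. *STEAP1* and *SLC45A3* ran in opposite directions over the 11 tumours, with Pearson's r = -0.90 (exact permutation p = 0.000231, adjusted p = 0.00347) and Spearman's rho = -0.91 (p = 0.000509, adjusted p = 0.00764). Within the PBS tumours r was -0.78 and within the A2M tumours -0.95. When PC3_tumor_131 and PC3_tumor_132, the tumours farthest from the median of *STEAP1*, were left out, r was -0.82 and no longer passed (exact permutation, unadjusted p = 0.00694, adjusted p = 0.104). This leaves 9 tumours. With either of these tumours left out alone the pair passed (adjusted p = 0.0208 and 0.0245, exact permutation).

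Such coefficients were rare but not confined to this pair. Of 14962 other genes, 0.334% were at least as far negative with *STEAP1* and 0.388% with *SLC45A3*. In either direction the shares were 0.962% with *STEAP1* and 0.675% with *SLC45A3*. Total counts, the TMM factor and the summed level of host and stroma markers had coefficients between -0.29 and 0.44 with these genes, which are given as a description. The part of these measures in the relation was not tested.

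**Figure D4:**
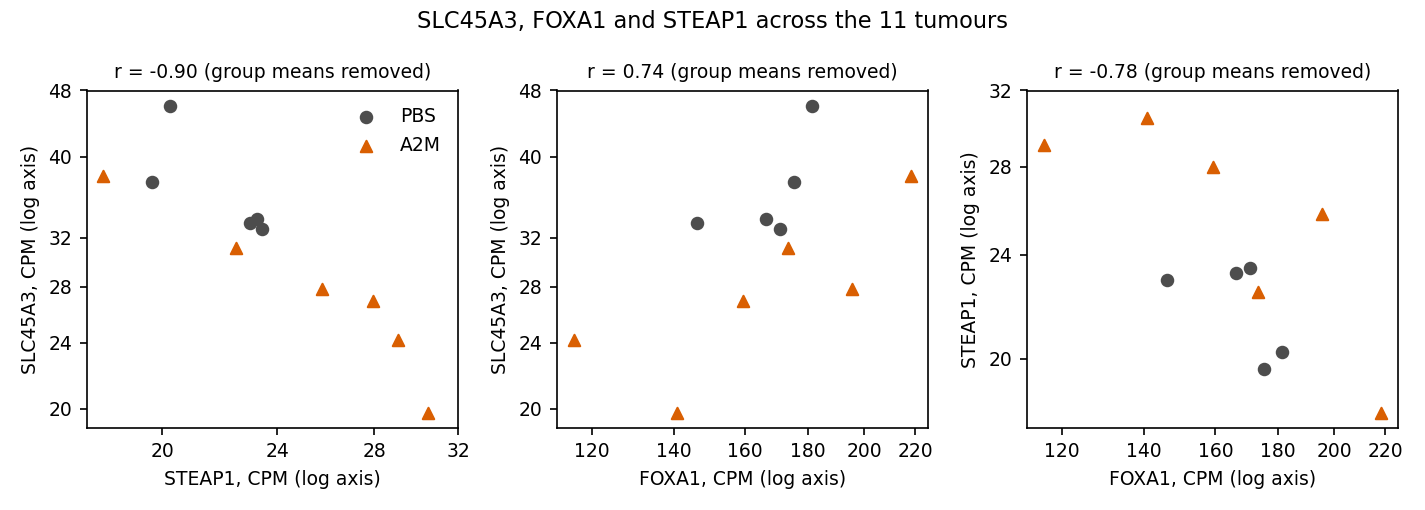
SLC45A3, FOXA1 and STEAP1 against each other in CPM on log axes, 1 point per tumour (circles PBS, triangles A2M), with the Pearson coefficient after removal of the group means above each panel. SLC45A3 is low where STEAP1 is high (r = -0.90) in both groups, and PC3_tumor_132 has the highest FOXA1 (218 CPM) with the lowest STEAP1 (18.2 CPM).

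*FOXA1* was in between, positive with *SLC45A3* (r = 0.74, exact permutation p = 0.0282, adjusted p = 0.141) and negative with *STEAP1* (r = -0.78, p = 0.0237, adjusted p = 0.141). Neither passed as Pearson's r. By rank, *FOXA1* and *SLC45A3* passed (rho = 0.87, exact permutation p = 0.00238, adjusted p = 0.0179), whereas *FOXA1* and *STEAP1* did not (rho = -0.85, p = 0.0144, adjusted p = 0.0541). An r of at least 0.74 was not particular to *FOXA1* and *SLC45A3*. Of 14962 other genes, 3.35% reached it with *FOXA1* and 5.45% with *SLC45A3*. In either direction these shares were 6.52% and 11.9%. No such share was computed by rank. *STEAP1* and *STEAP2*, though neighbours in the genome, had r = 0.48 (exact permutation p = 0.144, adjusted p = 0.431). *TMPRSS2* and *FOXA1* had r = -0.16 over the 11 tumours (exact permutation p = 0.744, adjusted p = 0.797). With 1 tumour left out, r ran from -0.41 without PC3_tumor_131 to 0.80 without PC3_tumor_112. The latter tumour had the highest *TMPRSS2* and the lowest *FOXA1*. Without it, *STEAP1* and *SLC45A3* were the only pair that passed, so this r of 0.80 is a description.

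For each gene, up to 3 genes with the most similar course over the 11 tumours were taken from the expressed genes by Pearson's r of the same centred values. They are among the 3 highest of 14963 coefficients (14964 for *FOLH1*) and are a description only. Closest to *FOXA1* were the iron exporter gene *SLC40A1* (0.97), *PAIP2B* (0.97) and the homeobox gene *HOXA10* (0.97). For *STEAP1* they were *CTPS1* (0.99), which encodes a CTP synthase, the chaperonin subunit gene *TCP1* (0.98) and the nucleoporin gene *NUP88* (0.97). *SLC45A3* ran with *CYSTM1* (0.98), *ACSF2* (0.96) and *BLCAP* (0.96). *STEAP2* was closest to the arylamine acetyltransferase gene *NAT1* (0.98) and to the F-box genes *FBXW2* (0.96) and *FBXO28* (0.96). Coefficients were lower for *TMPRSS2*, with *ZSWIM5* (0.93), *PLCL2* (0.92) and *DENND3* (0.91), and for *FOLH1*, with *ZNF280C* (0.92) and *NIPAL2* (0.90). None of these was among the 8 genes.

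Further targets of the androgen receptor were expressed unevenly. Of 25 such genes, 22 passed the filter and 17 had a median of at least 1 RPKM. The highest were *NDRG1* with 440 RPKM, also known as a hypoxia gene, *PMEPA1* with 295 RPKM, also known as a target of TGF-beta, and the epithelial transcription factor *SPDEF* with 104 RPKM. *FKBP5*, a classical target of androgens and glucocorticoids, had 1.30 RPKM, *TRPM8* 0.783 RPKM, and *ZBTB16* no read. In A2M tumours 0 of 22 were higher and 2 lower at an unadjusted p under 0.05, beside 3.55% and 3.53% of all genes, and 0 passed at an adjusted p under 0.01 (edgeR). These 2 were *NDRG1*, with a log2 fold change of -0.77 (edgeR adjusted p = 0.681), and *PMEPA1*, with -0.21 (adjusted p = 0.699). The median log2 fold change of the 22 was -0.12, beside -0.0021 for all genes tested, and this difference was not tested.

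Cofactors of the receptor were present throughout, with medians between 0.768 RPKM for *GATA2* and 27.1 RPKM for *HOXB13* over 8 genes. *FKBP4*, a cochaperone of steroid receptors, was the only 1 of 8 at an unadjusted p under 0.05, beside 7.08% of all genes (3.55% in the higher direction). Its mean was 87.4 ± 6.82 CPM with PBS (SD, n = 5) and 127.4 ± 33.8 CPM with A2M (SD, n = 6). Here 5 of 6 A2M tumours were above every PBS tumour, with a log2 fold change of 0.54 (edgeR adjusted p = 0.599). Of 5 other steroid receptor genes, the glucocorticoid receptor gene *NR3C1* was highest at 7.35 RPKM. *ESR1*, *ESR2* and *NR3C2* lay between 0.262 and 0.488 RPKM and *PGR* at 0.0118 RPKM.

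**Figure D5:**
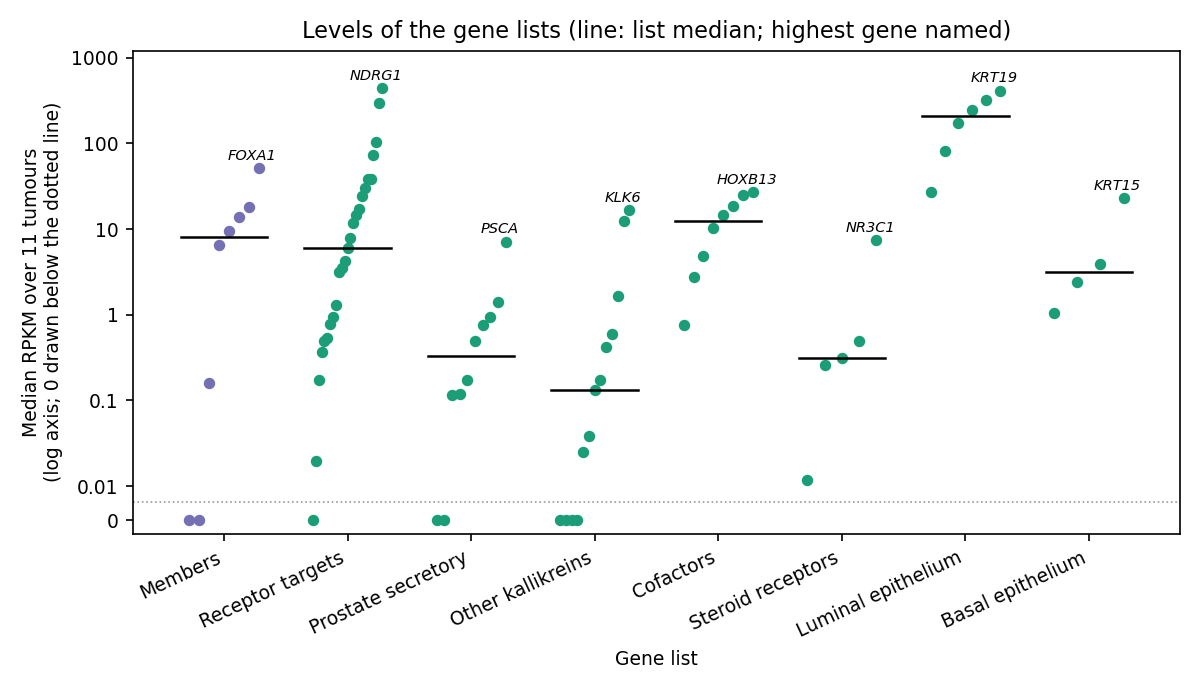
Median RPKM over the 11 tumours (log axis, 0 below the dotted line) of the 8 genes and of 7 further gene lists, 1 point per gene with the list median as a line and the highest gene named. The luminal list has the highest median line (KRT19 at 409 RPKM), the highest single gene is the receptor target NDRG1 (440 RPKM), and prostate secretory genes and kallikreins reach down to 0.

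Markers of host and stroma were measured as a check of the human reads, and their part in the results was not tested. The summed level of the 10 genes was 73.8 to 133.0 RPKM in the PBS and 72.4 to 175.4 RPKM in the A2M tumours, most of it *COL1A1* with a median of 96.3 RPKM. By counts per tumour the list was mixed. *LUM* had 2 to 5, *DCN* 0 to 3 and *HBB* 0 to 18 counts, while *COL3A1* had 224 to 1247, *CD68* 381 to 902, *PECAM1* 238 to 803, *ACTA2* 75 to 180, *PTPRC* 21 to 69 and *VWF* 11 to 33 counts. Of 7 tested markers, 1 was lower at an unadjusted p under 0.05, *VWF*, beside 3.53% of all genes in this direction. Its log2 fold change was -0.42 (edgeR adjusted p = 0.648).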

How the data were processed

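RNA of 11 PC-3 xenograft tumours was sequenced from TruSeq v2 libraries, which do not mark strand. The authors sorted human from mouse reads with xenome, mapped the human reads to hg19 with TopHat2 and assigned them to RefSeq genes by featureCounts (bcl2fastq 1.8.4 and mm10 are also in the submitters' notes; the strand setting is not given in the sources used here). Counts were deposited as raw whole numbers. The authors added RPM (counts over the tumour's total) and RPKM (RPM over the exon length). The RPM values gave back whole reads in 100% of cases (tolerance 0.001 reads), none of which differed from the counts.

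Counts were filtered with filterByExpr, TMM-normalized and tested with edgeR 4.0.16 (quasi-likelihood, R 4.3.3) without covariates, at an adjusted p of 0.01. Levels between genes were compared as RPKM. Members and gene lists were chosen with earlier results of these data known. Named were the 8 genes, genes of lists of at most 12, those at unadjusted p under 0.05 or among the 3 highest of a list, and the 3 most similar genes of each member at a mean log2 CPM (prior count 2) of at least 0. *FKBP5*, *TRPM8*, *ZBTB16*, *REP15* and the low kallikreins were named after their values were seen. The values of 4 genes are not reported here.

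Alternatives were other scalings, filters and tests (DESeq2 1.42.0, and limma 3.58.1 on log2 of RPKM + 0.1), and the omission of single tumours. The test on reads recovered from RPM and the search with 3 mismatches were added after seeing the data. Positions are from GENCODE mapped to GRCh37. Promoter sequences are from RefSeq (GRCh38.p14) and were located in GRCh37 by exact match. The main fit was also run on simulated counts with known changes, and no result given here rests on its outcome.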

Additional observations from a re-analysis of the deposited data

How the results depend on the processing

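Under the alternatives that kept all tumours and those that left out 1 of the 11, none of the 6 genes tested passed an adjusted p of 0.01. One gene of the whole table, *REP15*, which is not among the 8 genes, passed with DESeq2, with edgeR's exact test and with its likelihood ratio test (1 gene each, against 0). Of the members' log2 fold changes under alternatives, 111 kept their sign and 20 reversed. The 111 include the 6 genes in the fit on reads recovered from RPM. These reads were identical to the counts, so that no sign could change there. *FOXA1* changed to 0.0092 with upper quartile factors, 0.038 with library size only and 0.011 with limma on RPKM. *STEAP2* changed to 0.0079, 0.036 and 0.038 in the same order, and to 0.0013 with limma-voom. The cause was not tested. With 1 tumour left out, the log2 fold change was -0.065 to 0.23 for *TMPRSS2* (negative without PC3_tumor_112), -0.49 to 0.0028 for *FOLH1* (positive without PC3_tumor_124), -0.098 to 0.081 for *FOXA1*, -0.056 to 0.055 for *STEAP2*, 0.18 to 0.31 for *STEAP1* and -0.50 to -0.30 for *SLC45A3*. Scaling by library size only moved the median of all genes to 0.04. *FOLH1* has no value where 10 counts were required in every tumour.

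Of the 15 pairs, 1 passed by Pearson's r, 2 by Spearman's rho, and 1 to 2 with each tumour left out. With 2 tumours left out for each pair, 0 passed. These were the 2 farthest from the median of the pair's gene with the higher median RPKM. They therefore differed between pairs, while the adjustment ran over all 15 pairs. *STEAP1* and *SLC45A3* had r = -0.94 to -0.85 with 1 tumour left out and -0.82 (adjusted p = 0.104, exact permutation) without the 2 farthest. *FOXA1* and *SLC45A3* passed as rho (0.87), with r = 0.74 not passing. *SLC45A3* and *FOLH1* had r = -0.66 (adjusted p = 0.181, exact permutation). They passed without PC3_tumor_132 (r = -0.85, adjusted p = 0.0245, exact permutation), but r was -0.51 without PC3_tumor_131 and -0.35 with group means kept. It was also -0.35 without PC3_tumor_131 and PC3_tumor_125, the 2 farthest for *SLC45A3*. Of 14963 other genes, 11.4% were at least as far negative as -0.66 with *SLC45A3* and 3.86% with *FOLH1*. Ranked among the 22078 genes with a count, *FOLH1* stood above 24.2%, *STEAP1* above 80.6%, *STEAP2* above 62.5% and *SLC45A3* above 69.2% of genes. With 3 mismatches allowed, 3 starts held the response element instead of 1. No paired analysis was possible because the groups share no tumour numbers. Depth limits *FOLH1*, *KLK2* and *KLK3* most.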

Other observations

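Genes of androgen metabolism were uneven in level, with 4 of 8 at a median of at least 1 RPKM and a list median of 0.804 RPKM. Of the 8 genes, 6 were tested, and the reductase gene *SRD5A3* was highest with 11.1 RPKM, followed by *SRD5A1* (6.96 RPKM) and *AKR1C3* (4.92 RPKM). *SRD5A2*, the main 5-alpha reductase of the normal prostate, had a median of 0.0862 RPKM, *CYP17A1* 0.0411 RPKM, *UGT2B17* 0.139 RPKM, *UGT2B15* 0.308 RPKM and *HSD17B3* 1.30 RPKM. For *SRD5A3* the mean was 51.5 ± 8.37 CPM with PBS (SD, n = 5) and 41.8 ± 5.23 CPM with A2M (SD, n = 6). The log2 fold change was -0.30 (edgeR adjusted p = 0.642), and it was the only one at an unadjusted p under 0.05, beside 7.08% of all genes.

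Of 10 genes of prostate secretion or prostate cancer testing, 6 were tested. *PSCA* was highest with 7.12 RPKM, *TGM4* had 1.41 RPKM and prostatic acid phosphatase (*ACPP*) 0.942 RPKM, while *SEMG2* had no read. *MSMB*, a secreted protein of the prostate, had 4 to 18 counts per tumour, with means of 0.456 ± 0.0731 CPM for PBS (SD, n = 5) and 0.284 ± 0.0718 CPM for A2M (SD, n = 6). It was below every PBS tumour in 5 of 6 A2M tumours, with a log2 fold change of -0.68 (edgeR adjusted p = 0.640). *MSMB* was the only 1 of the 6 tested at an unadjusted p under 0.05, beside 7.08% of all genes (3.53% in the lower direction).

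In the families of the 8 genes, unadjusted p under 0.05 was also found for *FOXA2*, with a log2 fold change of 0.59 (edgeR adjusted p = 0.640), and in 3 of 12 tested membrane proteases, beside 7.08% of all genes. These were *CORIN* (0.60, adjusted p = 0.699), *TMPRSS13* (-0.25, adjusted p = 0.640) and *TMPRSS15* (-0.67, adjusted p = 0.642). No further kallikrein, STEAP or SLC45 gene was among them. In a search for outlying tumours in 16 groups of values by Dixon's criterion, where chance gives 0.8, there were 0.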
